A study of Rattus norvegicus with 3 samples.

Results

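Cytochrome P450 enzymes are haem proteins that insert an oxygen atom into drugs, toxins, fatty acids, steroids and vitamins. The genes described here are those whose single symbol in the platform annotation begins with Cyp and a digit: 58 genes, read by 66 probe sets (sets of short probes for a transcript), out of 14218 genes with a single symbol on the array. Where a gene had several probe sets, the brightest on average over the 3 arrays stood for it, and 7 of the 58 genes had more than 1 probe set. Expression was measured in kidneys of male Wistar rats weighing 370 to 508 g (with no ages in the labels). All kidneys, controls included, had 20 min of warm ischaemia to mimic donation after cardiac death, 17 ± 0.7 h of cold storage in University of Wisconsin solution, and 5 h 43 min ± 21 min of perfusion by the femoral artery of a living recipient rat (the labels do not say which error these are). Recipients received heparin at 100 U per ml per h, peptide 2 (modelled on the heparin-binding part of the chemokine CCL5) at 0.5 mg per ml, or normal saline at 1 ml per h as control, and each group had 7 recipients. The design text calls the dose a bolus and the treatment protocol an infusion. Each group is 1 Affymetrix array of equimolar RNA from 3 kidneys, picked for RNA quality.

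The kidney holds P450 enzymes mainly in the proximal tubule. Enzymes of subfamilies such as Cyp2c and Cyp2j turn arachidonic acid into epoxides that relax vessels, while Cyp4a and Cyp4f enzymes make the omega-hydroxylated acid, which constricts them. Mitochondrial P450s of the tubule take part in vitamin D metabolism, and microsomal P450s of families 1 to 3 clear foreign compounds with electrons from the reductase Por.

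Values are on the GCRMA log2 scale, in which a difference of 1 is 2-fold. No group has a replicate array, so no difference was tested, no error is given, and the number of arrays limits the precision. Across probe sets, which are not independent samples, Pearson's r was 0.996 for heparin with control, 0.998 for peptide with control and 0.996 for the treated arrays with each other. All 14 proximal tubule markers lay at or above the array median on every array. A gene counts as measured in a comparison when it was no lower than the all-probe-set median on either array. The signal of a probe set depends on its own probes, so levels are not ranked between genes.

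Of the 58 P450 genes, 21 lay at or above the median on all arrays. Another 27 lay within 0.01 of the lowest value of every array, 2.18, and 9 more lay below the median on all arrays without being at the lowest value. Cyp2t1 crossed the median on 1 array, with 3.93 in heparin, 4.61 in peptide and 4.12 in control. No P450 gene lay under the median of an array while reaching the 60th percentile of another. The same 21 genes were therefore the measured members in all 3 comparisons. A reading below the median does not show that a transcript was absent.

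**Figure D1:**
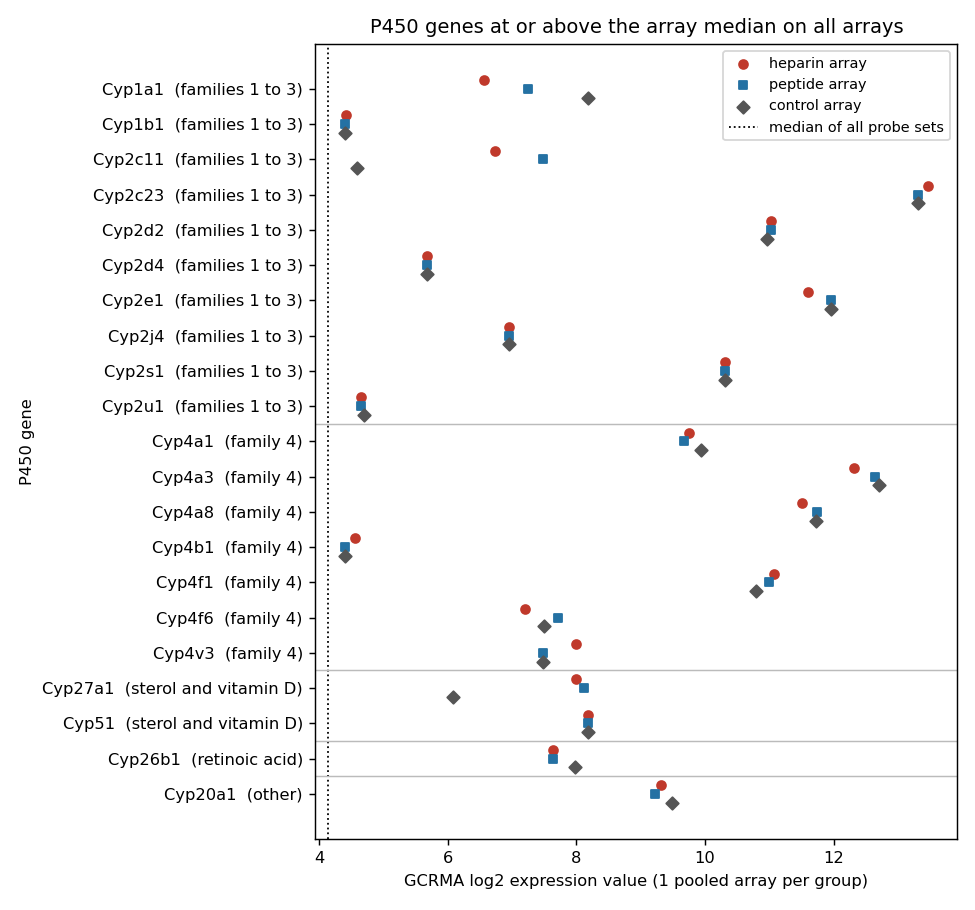
GCRMA log2 expression values of the 21 P450 genes at or above the median on all arrays, with a row per gene and a marker per array (heparin, peptide, control); the dotted line is the control array's median, 4.14. The control marker stands left of the treated ones for Cyp2c11 and Cyp27a1 and right of them for Cyp1a1, and most other genes have overlapping markers.

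Promoters of Cyp2c11 and Cyp27a1, which were higher in both treated pools, and of a Cyp2c relative with little difference are shown so that their sequences can be compared. They are RefSeq sequences of build GRCr8, from 250 bases before to 50 after the annotated start, and 46 of the 58 genes had an entry. Cyp1a1, which was lower in both treated pools, had none. Capitals mark the nuclear receptor motif AGGTCA on either strand. Cyp2c11 lies at chr1:246174966-246175265 on the + strand, Cyp27a1 at chr9:83713282-83713581 on the + strand and Cyp2c23 at chr1:252863018-252863317 on the - strand.
Cyp2c11: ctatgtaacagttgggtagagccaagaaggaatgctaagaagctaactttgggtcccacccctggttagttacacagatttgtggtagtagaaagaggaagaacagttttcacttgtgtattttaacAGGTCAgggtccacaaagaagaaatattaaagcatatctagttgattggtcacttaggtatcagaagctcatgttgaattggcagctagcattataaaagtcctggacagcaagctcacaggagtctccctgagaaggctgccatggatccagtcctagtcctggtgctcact
Cyp27a1: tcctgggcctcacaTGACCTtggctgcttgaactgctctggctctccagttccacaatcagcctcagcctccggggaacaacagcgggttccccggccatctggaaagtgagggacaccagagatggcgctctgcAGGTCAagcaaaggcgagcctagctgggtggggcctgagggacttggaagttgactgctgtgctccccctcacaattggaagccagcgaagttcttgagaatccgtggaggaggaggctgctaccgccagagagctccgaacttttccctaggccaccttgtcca
Cyp2c23: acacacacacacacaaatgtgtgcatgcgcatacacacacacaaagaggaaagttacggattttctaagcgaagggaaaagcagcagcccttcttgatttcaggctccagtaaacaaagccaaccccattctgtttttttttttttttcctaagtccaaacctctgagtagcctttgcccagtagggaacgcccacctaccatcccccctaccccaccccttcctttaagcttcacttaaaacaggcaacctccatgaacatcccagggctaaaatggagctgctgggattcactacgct

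The nuclear receptor motif stands a single time in the Cyp2c11 window, from base -123 to -118 relative to the start. It stands at bases -236 to -231 (as the reverse strand) and -115 to -110 in the Cyp27a1 window, and has no match in the Cyp2c23 window. It was found in 16 of 46 P450 promoters (34.8%), and in 6 of the 18 that belong to measured members, against 15.7% of all 27457 promoters. Measured members with the motif include Cyp2e1, Cyp2s1, Cyp2u1 and Cyp4a3, which lay within 1.5-fold of control with both treatments. The Cyp2c relatives Cyp2c7 and Cyp2c22, below the median on all arrays, have it as well. The motif was thus not limited to the genes that were higher. An interferon-type motif, GAAA and GAAA with 2 bases of any kind between, was found in 0 of the 46 P450 promoters and in 3.77% of all promoters. The STAT-type motif TTCNNNGAA was found in 5 of the 46 and in 8.68% of all. These are matches of letters on both strands with N as any base, counted whether or not motifs overlap, and not binding sites. No match in a window says nothing about a factor.

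The first comparison asks which P450 transcripts differed in kidneys perfused with heparin. Cyp2c11 and Cyp27a1 were higher and Cyp1a1 lower in the heparin pool, and the other 18 measured P450 genes lay within 1.5-fold of control (over all measured genes, 3.04% passed 1.5-fold upward and 3.37% downward). Thus 2 of 21 members (9.52%) were at least 2-fold higher, beside 1.06% of all 9236 measured genes, and 1 of 21 (4.76%) was at least 2-fold lower, beside 0.747%. Cyp2c11 and Cyp27a1 were named at the outset, and the P450 genes were chosen with earlier results of these data known. The larger share of higher genes is therefore no independent result about the family. The median difference was 0.00 over the P450 genes and 0.00 over all measured genes. In these bulk pools fewer cells of a type and less RNA per cell cannot be told apart.

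The second comparison asks the same of the peptide. Cyp2c11 and Cyp27a1 were again the members at least 2-fold higher, 2 of 21 (9.52%) beside 0.723% of all 9268 measured genes. As with heparin, both genes were named at the outset, so that share is no independent result about the family. None of the 21 was at least 2-fold lower, beside 0.119% of all genes, and Cyp1a1 was the member at least 1.5-fold lower, beside 0.917% of all genes. At that fold 2 members were higher, beside 2.11%. The median difference was 0.00 for the P450 genes and for all measured genes. Both treatments were set against the same control array, so a chance value on that array enters both differences.

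Cyp2c11 is a male-specific P450 of rat liver, which hydroxylates testosterone and also makes epoxides of arachidonic acid. It read 6.73 in heparin and 7.48 in peptide, against 4.58 in control. Both treated pools were above the control pool, which lay near the array median of 4.14. The log2 difference was 2.15 (4.43-fold) for heparin, rank 14 from the top of 9236 measured genes, and 2.89 (7.43-fold) for peptide, rank 3 of 9268. The size depends on how values near the background are treated: after 32 was added to the unlogged values the differences were 1.30 for heparin and 1.91 for peptide. With a filter at the 60th percentile the gene was not measured against control.

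Of the 7 Cyp2c genes with a single symbol, Cyp2c11 and Cyp2c23 lay above the median and 5 lay below it on every array. Cyp2c12 (the female-specific form of rat liver), Cyp2c13 and Cyp2c22 stood at 2.18 on all arrays, and Cyp2c7 at 2.20 in heparin, 2.18 in peptide and 2.18 in control. Cyp2c6v1 read 3.15 in heparin, 2.18 in peptide and 2.18 in control, below the median throughout. Those 5 genes follow Cyp2c11 in the RefSeq gene order among genes on the array. Cyp2c genes are close relatives, and probe sequences were not used here, so the share of the Cyp2c11 signal that comes from other Cyp2c transcripts was not tested.

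Because Cyp2c11 is best known from liver, hepatocyte markers were read beside it. Of 12 markers, 8 lay within 0.01 of the lowest value on every array, among them Apoa1, Serpina1, Tat and Tdo2. Their summed level was 7.71 in heparin, 7.21 in peptide and 7.81 in control (log2 of summed unlogged values), so it was lower in both treated pools than in control. Albumin (Alb) read 4.94 in heparin, 2.77 in peptide and 4.94 in control, and the fibrinogen gene Fgb 6.56 in heparin, 5.81 in peptide and 6.76 in control. Ambp, which was above the median, read 5.36 on all arrays. The lower sum thus came from Fgb alone in heparin and from Fgb and Alb in peptide. Every other marker of the list read the same on all arrays. The part of liver transcripts in the Cyp2c11 difference was not tested.

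Cyp27a1 is the mitochondrial sterol hydroxylase that begins the acidic pathway of bile acid synthesis and can hydroxylate vitamin D. It read 7.99 in heparin and 8.11 in peptide, against 6.08 in control. The treated pools were close to each other, with a difference of -0.12 between heparin and peptide, and both were above control. The log2 difference was 1.91 (3.77-fold) for heparin, rank 19 from the top, and 2.04 (4.10-fold) for peptide, rank 10. Its electron donor Fdx1 (ferredoxin) read 11.47 in heparin and 11.70 in peptide, against 11.52 in control.

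The other P450s of bile acids, vitamin D and sterols gave little signal or little difference. Cyp51, the lanosterol demethylase of cholesterol synthesis, read 8.18 on all arrays, and its other probe set read 6.38 in heparin, 6.10 in peptide and 6.38 in control. The remaining 6 of the 8 genes were below the median on every array. Cyp27b1, the kidney enzyme that activates vitamin D, was among those at 2.18 throughout, as were Cyp7a1, Cyp7b1, Cyp39a1 and Cyp46a1. Cyp8b1, a bile acid hydroxylase, read 3.44 on all arrays.

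Cyp1a1 hydroxylates polycyclic aromatic hydrocarbons and is the classic target of the aryl hydrocarbon receptor Ahr. It read 6.57 in heparin and 7.24 in peptide, against 8.18 in control. Both treated pools were below control, heparin more so. The log2 difference was -1.61 for heparin (3.05-fold lower), rank 12 from the bottom of 9236 measured genes, and -0.93 for peptide (1.91-fold lower), rank 15 from the bottom of 9268. Of its relatives, Cyp1b1 read 4.42 in heparin, 4.41 in peptide and 4.41 in control, and Cyp1a2, its neighbour in the gene order, stood at 2.18 on all arrays. Ahr lay below the median, with 2.90 in heparin, 2.91 in peptide and 2.91 in control, and its partner Arnt read 4.38 in heparin, 4.57 in peptide and 4.57 in control.

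Genes next to the members that differed most were also read, taking the 5 nearest genes on the array on each side in the RefSeq order. Against control, 0 of 7 measured neighbours of Cyp1a1, 0 of 3 of Cyp27a1 and 0 of 1 of Cyp2c11 differed by 1.5-fold or more with either treatment. Over all measured genes 3.04% were that much higher and 3.37% lower with heparin, and 2.11% and 0.917% with peptide. Counts of 0 among so few neighbours therefore do not set them apart from other genes.

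**Figure D2:**
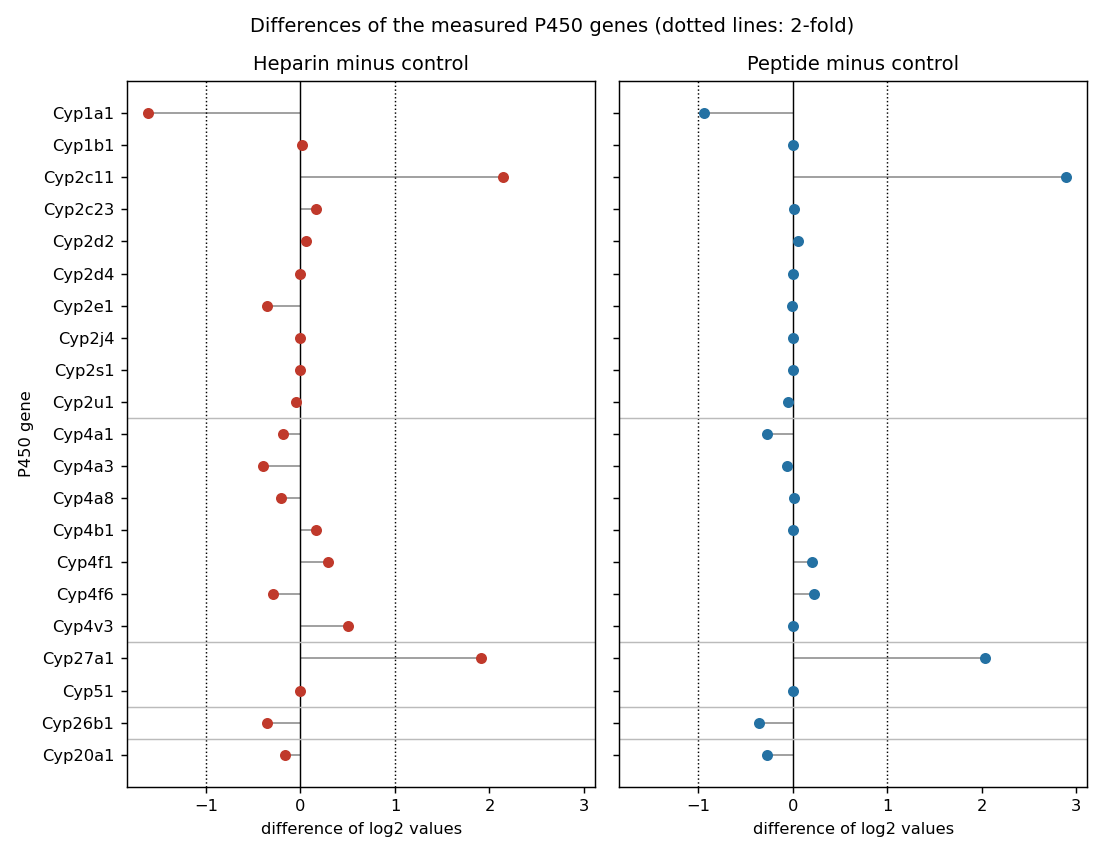
Differences of log2 values of the 21 measured P450 genes, with heparin minus control on the left and peptide minus control on the right; each point is a gene, grey lines separate the roles and dotted lines mark 2-fold. Cyp2c11 (2.15 and 2.89) and Cyp27a1 (1.91 and 2.04) lie past the upper line in both panels, and Cyp1a1 lies past the lower line with heparin (-1.61) and just inside it with peptide (-0.93).

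**Figure D3:**
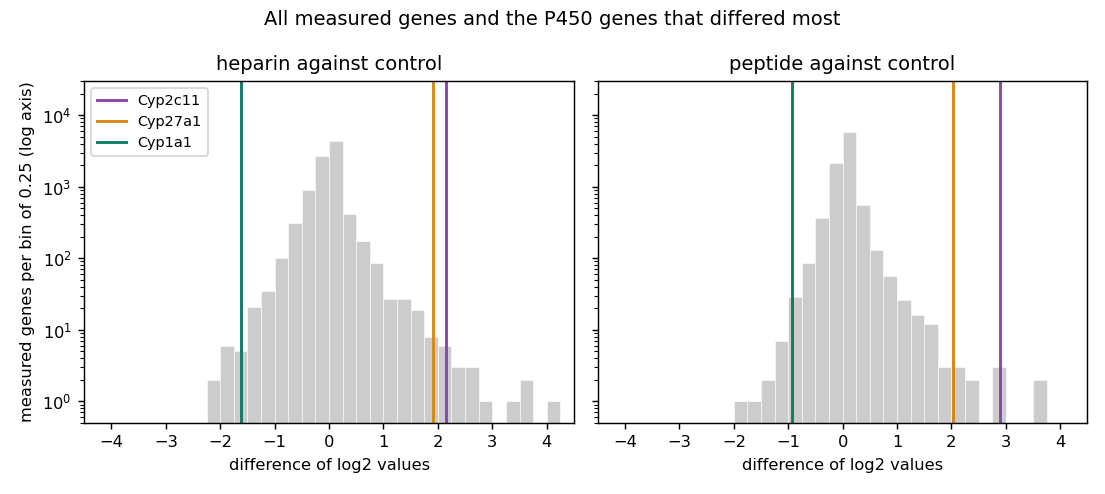
Number of measured genes (log axis) in bins of 0.25 of the log2 difference, for heparin against control on the left and peptide against control on the right, with coloured lines at Cyp2c11, Cyp27a1 and Cyp1a1. Most genes lie near 0, and the lines stand in the sparse tails of both distributions.

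Apart from Cyp2c11 and Cyp1a1, the measured xenobiotic P450s of families 1 to 3 showed small differences. Of the 32 genes of these families, Cyp2c11 and Cyp1a1 included, 10 were measured. The median difference of those 10 was 0.00 with heparin and 0.00 with peptide. Cyp2e1, which oxidises ethanol and other small molecules, read 11.61 in heparin, 11.96 in peptide and 11.97 in control, a difference of -0.36 for heparin. Cyp2c23, the main arachidonic acid epoxygenase of rat kidney, read 13.47 in heparin, 13.32 in peptide and 13.31 in control. Cyp2d2 read 11.02 in heparin, 11.02 in peptide and 10.96 in control. Cyp2s1 (10.31), Cyp2j4 (6.95) and Cyp2d4 (5.68) had the same value on all arrays. The summarisation can give identical values, so a difference of exactly 0 does not show equal abundance: 4 of the 21 measured P450 genes (19.0%) and 22.4% of all 9231 genes measured on the 3 arrays had 3 identical values. Cyp2u1, a fatty acid hydroxylase, read 4.65 in heparin, 4.65 in peptide and 4.70 in control. Another 21 genes of these families lay below the median on all arrays, including every single-symbol gene of subfamilies Cyp2a, Cyp2b and Cyp3a. In that range Cyp2j3 read 2.80 in heparin, 2.19 in peptide and 2.19 in control.

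Family 4 hydroxylases act on fatty acids and eicosanoids, and 7 of 10 were measured. None differed from control by 1.5-fold or more with either treatment, and the median difference was -0.19 with heparin and 0.00 with peptide. Over all measured genes 3.04% were 1.5-fold higher and 3.37% lower with heparin, and 2.11% and 0.917% with peptide, so a count of 0 among 7 does not set the family apart. With heparin 3 were higher and 4 lower than control, beside 2379 higher and 4081 lower of all 9236 measured genes. The 3 measured Cyp4a genes, of a subfamily induced through the fatty acid receptor Ppara in rodents, were lower with heparin by less than 1.5-fold. Cyp4a3 read 12.31 in heparin, 12.64 in peptide and 12.70 in control. Cyp4a8 read 11.51 in heparin, 11.74 in peptide and 11.72 in control, and its other probe set had differences of -0.45 for heparin and 0.11 for peptide beside -0.21 and 0.02. Cyp4a1 read 9.76 in heparin, 9.67 in peptide and 9.94 in control. Ppara itself stood at 2.18 on all arrays.

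The other family 4 genes went both ways. Cyp4v3, the rat counterpart of a human fatty acid hydroxylase linked to a retinal dystrophy, read 7.99 in heparin, 7.49 in peptide and 7.49 in control, a difference of 0.51 for heparin. Its other probe set stood at 2.18 on all arrays. Cyp4f1 read 11.08 in heparin and 10.99 in peptide, against 10.79 in control. Cyp4f6 read 7.19 in heparin, 7.72 in peptide and 7.49 in control, below control with heparin and above it with peptide. Cyp4b1 read 4.57 in heparin, 4.40 in peptide and 4.40 in control.

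Cyp26b1, which degrades retinoic acid, read 7.63 in heparin and 7.63 in peptide, against 7.99 in control, a difference of -0.35 for both treatments. Its other probe set stood at 2.23 on all arrays, and Cyp26a1 at 2.18. Cyp20a1, whose substrate is unknown, read 9.32 in heparin and 9.22 in peptide, against 9.49 in control. Of the 5 steroid hormone P450s, none was measured. Cyp11a1 (2.38), Cyp21a1 (2.53) and Cyp11b1, Cyp17a1 and Cyp19a1 (2.18 each) had the same value on all arrays. The cholesterol carrier Star, a marker of the adjacent adrenal cortex, read 2.20 in heparin, 2.20 in peptide and 2.19 in control.

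Heparin and peptide were then set against each other directly. Of 21 measured P450 genes, 0 were at least 2-fold higher in heparin than in peptide, beside 0.281% of all 9240 measured genes, and 0 were at least 2-fold lower, beside 0.844%. The members at least 1.5-fold lower in heparin were Cyp2c11 (-0.75) and Cyp1a1 (-0.68), 2 of 21 beside 4.57% of all genes, and 0 were 1.5-fold higher, beside 1.62%. Cyp4f6 (-0.52) was lower and Cyp4v3 (0.51) higher in heparin by less. The P450 median was 0.00, as was that of all measured genes.

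Redox partners pass electrons to P450s or modulate them. Of 10 listed, 8 were on the array and all 8 were measured. None differed from control by 1.5-fold or more. Over all measured genes 3.04% were that much higher and 3.37% lower with heparin, and 2.11% and 0.917% with peptide, so 0 of 8 does not set the list apart. The median was -0.14 with heparin (6 lower, 1 higher) and 0.00 with peptide (3 lower, 3 higher). Over all 9236 genes measured with heparin, 4081 were lower and 2379 higher than control, so lower values were also the more frequent there. Por, the reductase that serves the microsomal P450s, read 10.70 in heparin and 11.28 in peptide, against 10.94 in control, below control with heparin and above it with peptide.

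Genes whose products share substrates or haem with P450s, or handle vitamin D and steroids beside them, formed a further list. Of its 9 measured genes 2 were at least 2-fold lower with heparin, beside 0.747% of all measured genes, and 0 with peptide, beside 0.119%. None was at least 1.5-fold higher with either treatment, beside 3.04% of all measured genes with heparin and 2.11% with peptide. The median difference was -0.05 with heparin and 0.08 with peptide. The microsomal epoxide hydrolase Ephx1 read 10.38 in heparin, 11.25 in peptide and 11.54 in control, lower by 1.16 with heparin. The haem oxygenase Hmox1, which breaks down haem, read 11.74 in heparin, 12.53 in peptide and 12.91 in control, lower by 1.17 with heparin. The soluble epoxide hydrolase Ephx2, which breaks down the arachidonic acid epoxides, read 10.15 in heparin and 10.13 in peptide, against 10.03 in control. Alas1, the first enzyme of haem synthesis, read 10.02 in heparin, 10.55 in peptide and 10.07 in control.

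Of 21 listed transcription regulators of P450 genes on the array, 14 were measured. None was 2-fold from control, while over all measured genes 1.06% were 2-fold higher and 0.747% lower with heparin, and 0.723% and 0.119% with peptide. At least 1.5-fold lower with heparin was 1 (beside 3.37% of all measured genes), and 2 were at least 1.5-fold higher with peptide (beside 2.11%). The clock output factor Dbp read 9.14 in heparin and 9.46 in peptide, against 8.64 in control. Its relative Hlf read 8.80 in heparin, 9.30 in peptide and 9.41 in control. The acute-phase factor Cebpb read 10.54 in heparin, 11.57 in peptide and 10.92 in control. Hnf4a, a nuclear receptor of tubule and liver, read 11.61 in heparin and 11.32 in peptide, against 11.28 in control, and the xenobiotic receptors Nr1i2 (2.54) and Nr1i3 (2.18) had the same low value on all arrays.

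**Figure D4:**
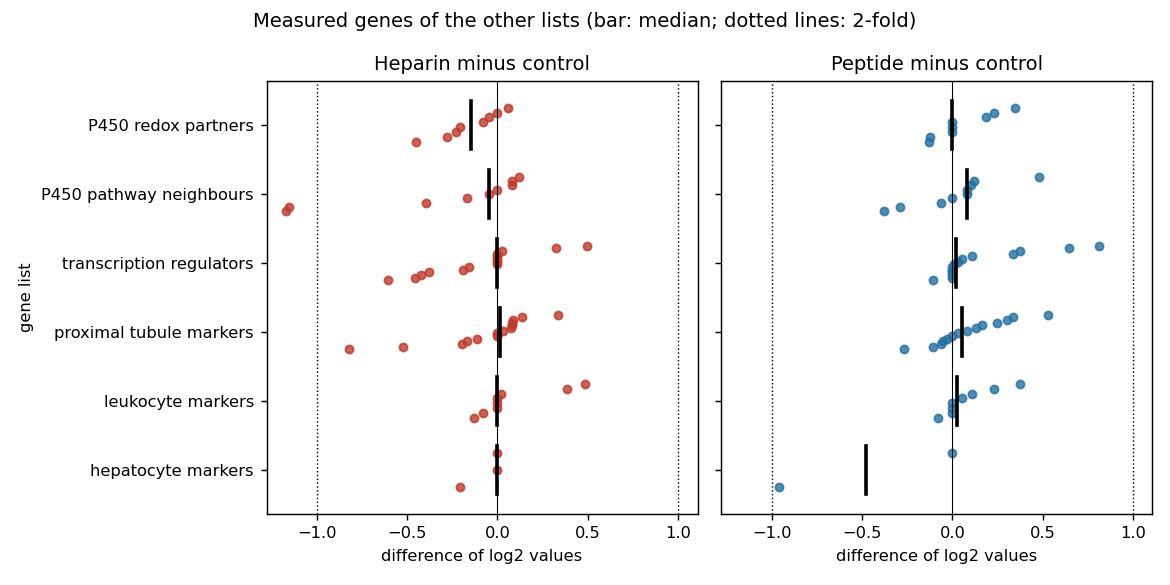
Differences of log2 values for measured genes of 6 other lists, with heparin minus control on the left and peptide minus control on the right; points are genes, black bars are list medians and dotted lines mark 2-fold. The points past 2-fold are Ephx1 and Hmox1 with heparin (-1.16 and -1.17); the list medians lie between -0.48 and 0.08.

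Other cell types and programmes were read beside the P450 differences. The 14 proximal tubule markers had a median difference of 0.02 with heparin and 0.06 with peptide, and a summed level of 17.20 in heparin, 17.29 in peptide and 17.20 in control. The sodium-coupled transporter Slc5a12, at 8.34 in heparin, 8.90 in peptide and 9.16 in control, was the marker at least 1.5-fold from control, and only with heparin. That is 1 of 14 lower, beside 3.37% of all measured genes. Of 10 leukocyte markers 8 were measured, with a median difference of 0.00 with heparin and 0.03 with peptide and a summed level of 13.66 in heparin, 14.00 in peptide and 13.74 in control. With heparin 3 were higher and 2 lower than control, and with peptide 4 were higher and 1 lower. The macrophage gene Cd68 read 7.55 in heparin, 6.99 in peptide and 7.07 in control. Cd14 read 8.71 in heparin, 8.43 in peptide and 8.32 in control. Csf1r read 7.20 in heparin, 7.18 in peptide and 7.18 in control, while Cd3d and Ms4a1 stood at 2.18. S100a8 read 12.01 in heparin, 12.51 in peptide and 12.13 in control. S100a9 read 12.84 in heparin, 13.16 in peptide and 12.92 in control. S100a8 and S100a9 make up most of the summed level, which therefore says little about the other markers. Interferon-stimulated genes were higher in the same pools as Cyp2c11 and Cyp27a1. At least 1.5-fold higher with each treatment were 9 of 9 on the array, beside 3.04% of all measured genes with heparin and 2.11% with peptide. Their summed level was 16.13 in heparin and 15.91 in peptide, against 14.88 in control. That list was chosen with its higher values in these pools already known. Their part in the P450 differences was not tested.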

How the data were processed

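Biotin-labelled cRNA of 3 pools of kidney RNA (6 µg of total RNA each, per the labels' protocols) was hybridised to 3 Affymetrix arrays. The authors' deposited table holds log2 values for 31099 probe sets, made with GCRMA per the submitters' processing notes, which state neither its version nor its settings. These values were used with no further scaling.

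The platform annotation gives a single symbol for 20832 of them, and the 58 P450 genes matched a RefSeq gene table of GRCr8 by gene ID. Python 3.11.15 with pandas 2.3.3 and numpy 2.4.6 computed differences of log2 values between arrays for genes at or above the median of both arrays, and counted those of at least 2-fold. The counting code was run on simulated data with an assumed noise that was small beside the 2-fold threshold. The real noise is unknown with 1 array per group, so that run checks only the code. No test, p-value or error is given, since each group is 1 array. Named in full were the members at least 1.5-fold apart in any comparison, the 3 with the highest mean, and up to 3 measured members of each role list with the largest difference from control; any P450 gene could be named with its values, and of the other lists up to 4 genes each with the largest differences. Genes of those lists named beyond that (Ahr, Arnt, Fdx1, Ppara, Nr1i2, Nr1i3, Hnf4a, Star, Ephx2, Csf1r, Cd3d, Ms4a1 and the hepatocyte markers at the lowest value) were chosen after their values were seen. The members and lists were chosen with earlier results of these data known. The planned comparison of P450 protein sequences was not made.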

Additional observations from a re-analysis of the deposited data

How the results depend on the processing

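The alternatives were a filter at the 40th or the 60th percentile or no filter, averaging the probe sets of a gene or taking its dimmest, quantile normalization, centring of the arrays, an offset of 32 on the unlogged values, and a 1.5-fold threshold. Of 105 recomputed counts and medians, 99 stayed within 1.5 times the reported count or within 0.1 of the reported median. These are not independent, since each count either way is the sum of the counts higher and lower. With the filter at the 60th percentile 1 P450 gene was at least 2-fold higher in heparin than in control and 1 in peptide than in control, and the count of P450 genes 2-fold either way in peptide against control was 1, since Cyp2c11 was no longer measured. In heparin against control the count either way went from 3 to 2, which still lies within 1.5 times. At 1.5-fold, 1 P450 gene was lower in peptide than in control, and 2 were lower in heparin than in peptide (2 either way), by construction of the lower threshold. Of 256 recomputed differences of named P450 genes 254 moved by less than 1.5-fold, none of those at least 2-fold changed sign, and the exceptions were the Cyp2c11 differences with the offset (1.30 for heparin, 1.91 for peptide). Many of the 254 could not move. A filter only selects genes and leaves their differences as they are. The choice of probe set cannot change a gene with 1 probe set, such as Cyp2c11, Cyp27a1 and Cyp1a1. Leaving out a replicate was not run, and no paired analysis was possible because each group is 1 array. For genes near the lowest value the background limits what can be read.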

Other observations

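Probe sets that the annotation assigns to several P450 genes were kept out of the counts. There were 7, all with P450 symbols only, and 5 lay below the median on all arrays. One of the others read 10.79 in heparin and 11.19 in peptide, against 10.33 in control, differences of 0.46 for heparin and 0.86 for peptide. The remaining probe set read 14.90 in heparin and 14.88 in peptide, against 14.92 in control.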
